A study of Mus musculus with 14 samples.

Results

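The Gimap genes examined here are Gimap1, Gimap4, Gimap5, Gimap6, Gimap8 and Gimap9, 6 of the 22842 genes that both count tables of the series list. The files write their symbols as GIMAP1, GIMAP4, GIMAP5, GIMAP6, GIMAP8 and GIMAP9. They were chosen by name, with earlier results of these data known that placed them among genes of stem cells, so their level in stem cells against other cells is given as a description with no test. All 6 members were present in both tables. Gimap1os, Gimap3 and Gimap7, the other 3 genes of the family in both tables, are given beside them. Values are from single mouse cells that carried no mature lineage marker and were positive for the reporter Tom, which was switched on in stem cells in the living animal and is inherited by their progeny. No source used here names the promoter driving the switch, the strain or the age of the mice. The cells of mouse m4539 were taken at day 3, those of m4533 at day 10, and those of m4528, m605 and m606 at day 17. The titles do not say from which event days were counted. One more plate of day 17 held cells of m605 and m606 together.

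Gimap proteins (GTPases of the immunity-associated protein family) are small GTP-binding proteins, several of which sit in membranes inside the cell, and they are best known from lymphocytes. Loss of Gimap5 in mice and rats causes a loss of T lymphocytes, and mice without Gimap1 lack most mature lymphocytes. Gimap6 binds a protein of the Gabarap family and takes part in autophagy, the digestion of a cell's own contents. Gimap4 has been linked to the timing of T cell death.

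All 6 members lie on mouse chromosome 6 within 107 kb (GRCm38, GENCODE annotation), and the 9 Gimap genes of the annotation span 124 kb. Gimap8 (chr6:48647234-48660875), Gimap9 (chr6:48676129-48679114), Gimap4 (chr6:48684549-48692060), Gimap1 (chr6:48739054-48743795) and Gimap5 (chr6:48746197-48754210) are on the forward strand. Gimap6 (chr6:48701582-48708225) is on the reverse strand. The noncoding gene Gimap1os overlaps Gimap1 by 2391 bp on the other strand, and the annotated gene Gm28053 runs across Gimap7, Gimap1os, Gimap1 and Gimap5. No source used here says whether counting used the strand, so reads of Gimap1 and Gimap1os cannot be told apart with certainty. Gimap3 and Gimap5 are close relatives in sequence, and how their reads were split is not known. Gm28053 had 18 counts in all kept cells.

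Stretches of 250 bases before the annotated start are shown for the 3 members whose levels moved together most closely and for Gimap9, whose pattern differed. They were taken from RefSeq on GRCm38.p6, where all 6 members had an entry. Capitals mark a match to GGAAGT, the core of an ETS factor motif, or to TGTGGT, the core of a RUNX factor motif. Both strands were searched, so a match on the other strand reads ACTTCC or ACCACA. The sequences are at chr6:48708245-48708494 on the reverse strand for Gimap6, and on the forward strand at chr6:48738797-48739046 for Gimap1, chr6:48745947-48746196 for Gimap5 and chr6:48675885-48676134 for Gimap9.
Gimap6: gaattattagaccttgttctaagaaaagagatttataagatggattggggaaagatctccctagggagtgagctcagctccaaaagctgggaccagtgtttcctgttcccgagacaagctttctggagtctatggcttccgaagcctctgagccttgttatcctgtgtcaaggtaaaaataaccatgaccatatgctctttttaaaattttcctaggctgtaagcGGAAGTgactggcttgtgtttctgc
Gimap1: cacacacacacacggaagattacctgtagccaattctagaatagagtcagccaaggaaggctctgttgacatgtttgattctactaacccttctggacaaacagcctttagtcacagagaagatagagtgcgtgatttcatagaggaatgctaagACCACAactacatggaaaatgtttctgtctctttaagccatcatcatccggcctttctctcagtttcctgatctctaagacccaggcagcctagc
Gimap5: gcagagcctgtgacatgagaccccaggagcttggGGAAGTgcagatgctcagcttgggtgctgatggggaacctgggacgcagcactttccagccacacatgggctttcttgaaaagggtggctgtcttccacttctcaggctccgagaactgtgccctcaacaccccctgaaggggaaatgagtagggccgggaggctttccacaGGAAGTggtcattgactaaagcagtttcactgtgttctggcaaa
Gimap9: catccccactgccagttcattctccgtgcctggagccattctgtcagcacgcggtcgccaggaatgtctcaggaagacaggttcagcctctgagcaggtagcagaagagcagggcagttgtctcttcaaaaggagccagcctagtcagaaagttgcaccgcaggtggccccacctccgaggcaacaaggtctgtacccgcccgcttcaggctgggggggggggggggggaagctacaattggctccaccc
Counted back from the start, an ETS core stood at -25 before Gimap6 and in 2 places before Gimap5. A RUNX core stood at -95 before Gimap1 and at -145 before Gimap4, which is not shown. AGATAA, the core of a GATA factor motif, was searched on both strands too and was in none of the 6 members' windows. The same searches matched 19.7% (ETS), 14.05% (RUNX) and 9.99% (GATA) of 32851 promoter windows of the same length. Neither core was in the Gimap9 or Gimap8 windows. The cores were chosen with the sequences known, they do not overlap each other, and a match is a description of the letters only.

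The tables held 1010 kept cells, each with at least 500 detected genes and 10000 counts. Cells per mouse numbered 190 (m4539), 107 (m4533), 288 (m4528), 143 (m605) and 189 (m606), with 93 more on the combined plate, and total counts per mouse were 25482791 to 64257177. Lineages were assigned by a gate on marker genes that holds no Gimap gene. The stem gate held 341 cells, 146, 57, 77, 13 and 32 in the 5 mice in the order above and 16 on the combined plate. In stem-gated cells 10 of the 12 stem markers were found in at least 10% of cells, and the median cell had 4 of them. The multipotent gate was less distinct, with a median of 5 multipotent and 3 neutrophil markers a cell. Its own list summed to 5956 CPM, against 6539 CPM in neutrophil and 7242 CPM in monocyte and dendritic gated cells. The neutrophil list summed to 3757 CPM in multipotent gated cells, so comparisons with this gate below may include granulocytic cells. A gene is called found in a cell where it has over 10 counts. The stem-gated cells of mouse m605 stood apart in several members and number 13, so its values are given apart below. Stem-gated cells were shallower than the rest, with a median of 116996 counts a cell, against 141628 in multipotent, 158065 in megakaryocyte, 219394 in erythroid, 286178 in neutrophil and 182545 in monocyte and dendritic gated cells. The 96 well barcodes recur across plates, and each of the 1010 cells shares a barcode with a cell of another plate. Cells of 1 mouse are not replicates: counts were summed per mouse and lineage where the mouse had at least 10 such cells, and values are CPM, the counts scaled by the total of that sum.

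In stem-gated cells all 6 members were detected, and the 4 found in many cells (Gimap1, Gimap5, Gimap6 and Gimap9) together with Gimap4 and Gimap8 added up to 1813 ± 278 CPM (SD, n = 5 mice). The sum was 844 ± 245 CPM in multipotent gated cells (n = 3), 344 ± 149.5 CPM in megakaryocyte gated cells (n = 4), 136 ± 88.1 CPM in erythroid gated cells (n = 3), 128 ± 91.6 CPM in neutrophil gated cells (n = 3) and 18.6 ± 9.61 CPM in monocyte and dendritic gated cells (n = 3). Within a mouse the stem-gated sum was 1.93 to 2.39 times the multipotent one, 4.10 to 7.56 times the megakaryocyte one, 9.15 to 21.4 times the erythroid one and 9.30 to 24.5 times the neutrophil one. It was 54.2 to 224 times the monocyte and dendritic sum, with a median of 98.7, or 162 without mouse m606. The stem-gated sum was the higher in every mouse compared with these 5 lineages. On the combined plate, left out of these means and ratios, the sum was 1233 CPM in stem, 103.5 CPM in multipotent and 322 CPM in megakaryocyte gated cells. The contrast was narrower against the 222 cells (22.0% of kept cells) that no gate took, whose sum was 1689, 1267, 852, 321 and 226 CPM in m4539, m4533, m4528, m605 and m606. In m4539 these ungated cells were above the stem-gated ones for Gimap1 (stem-gated 403, ungated 449 CPM) and Gimap5 (stem-gated 215, ungated 274 CPM). The same held in m605 for Gimap1 (stem-gated 38.5, ungated 87.9 CPM) and Gimap5 (stem-gated 13.2, ungated 25.4 CPM). Against all kept cells outside the stem gate, the stem-gated sum was 1.54 times as high in m4539, 3.23 in m4533, 3.94 in m4528, 10.96 in m605 and 8.84 in m606.

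Gimap6, the partner of the autophagy proteins, was the steadiest member across mice. Its stem-gated level was 983 CPM in m4539, 951 in m4533, 984 in m4528, 931 in m605 and 699.8 in m606. The multipotent level was 459, 556 and 339 CPM in m4528, m605 and m606, below the stem-gated level of every mouse. The next levels were 110.1 ± 62.2 CPM in megakaryocyte (n = 4), 36.5 ± 34.5 in neutrophil, 28.8 ± 24.6 in erythroid and 6.77 ± 5.26 in monocyte and dendritic gated cells (SD, n = 3 each). Over the single mice the order ran from stem through multipotent to megakaryocyte without overlap between neighbours, while erythroid and neutrophil levels overlapped. The combined plate did not keep this order. There Gimap6 had 696 CPM in stem, 42.5 CPM in multipotent (10 cells) and 189 CPM in megakaryocyte gated cells (14 cells).

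Gimap1, which mature lymphocytes need, had 403, 439, 647, 38.5 and 221 CPM in the stem-gated cells of m4539, m4533, m4528, m605 and m606. Mouse m605 was the lowest by far, with 1 of its 13 stem-gated cells found positive. The mean was 349.6 ± 230.4 CPM (SD, n = 5), or 427 ± 175 CPM without m605. Multipotent gated cells had 129 ± 143 CPM, and here the ranges over mice overlapped, yet within a mouse the stem-gated level was 1.96 to 2.88 times the multipotent one. Megakaryocyte gated cells had 24.9 to 97.8 CPM (n = 4). Erythroid, neutrophil and monocyte and dendritic gated cells averaged 4.89 ± 5.60, 12.6 ± 14.7 and 1.45 ± 1.98 CPM (SD, n = 3 each).

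Gimap5, whose loss depletes T lymphocytes, had 215, 254, 209.6, 13.2 and 277 CPM in the stem-gated cells of the 5 mice in the same order. The 4 mice other than m605 lay close together at 239 ± 32.3 CPM, and in m605 none of 13 stem-gated cells had over 10 counts, which allows a share of up to 23.1%, taking 3 cells of the total as the limit for a count of 0 here and below. The multipotent mean was 79.0 ± 18.6 CPM (n = 3) and the megakaryocyte mean 60.9 ± 40.7 CPM (n = 4). The stem-gated level was 2.34 and 3.09 times the multipotent one in m4528 and m606, and 0.229 times in m605. Stem over megakaryocyte was 3.76, 3.91 and 23.5 in m4528, m4533 and m606, and 0.118 in m605. Erythroid, neutrophil and monocyte and dendritic means were 3.92, 9.37 and 2.81 CPM.

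Gimap9 had another pattern. Its stem-gated level was 209, 246, 255, 729.9 and 153 CPM in the same order of mice, so that m605 was the highest here. On plate 1 of m605, 1 cell held 73.9% of 683 Gimap9 counts, out of 721 counts in the 13 stem-gated cells, so the m605 level and its ratio below rest largely on 1 cell. The mean of 319 ± 233 CPM came to 216 ± 46.3 CPM without m605. Multipotent gated cells had 281, 93.0 and 173 CPM in m4528, m605 and m606, which put the stem-gated level at 0.908, 7.85 and 0.883 times the multipotent one. Megakaryocyte (101 ± 67.3 CPM, n = 4), erythroid (98.4 ± 59.2 CPM, n = 3) and neutrophil (69.4 ± 32.5 CPM, n = 3) gated cells overlapped with each other and with multipotent cells. Monocyte and dendritic gated cells had 7.12 ± 10.2 CPM (n = 3).

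Gimap4 and Gimap8 were scarce. Gimap4 had 10.9, 14.96, 58.8, 11.1 and 55.5 CPM in stem-gated cells and Gimap8 had 13.8, 4.01, 20.3, 14.2 and 3.21 CPM. Gimap4 averaged 5.77 ± 10.9 CPM in megakaryocyte gated cells (n = 4), and in m4533 it had 22.1 CPM there, above the stem-gated level (a ratio of 0.676 for stem over megakaryocyte). Of the 239 Gimap4 counts in stem-gated cells of m4533, 234 were on plate 15, where 1 cell held 97.9% of them. This ratio thus rests on very few cells. In the other 4 gated lineages the mean of Gimap4 was at most 0.238 CPM. Gimap8 averaged 1.78 ± 2.46 CPM in multipotent gated cells (n = 3) and at most 0.223 CPM in the other 4 gated lineages. Cells that no gate took had 4.17 ± 8.42 CPM of Gimap4 and 6.51 ± 8.16 CPM of Gimap8 (SD, n = 5 each), and in m605 their Gimap8 level of 17.5 CPM was above the stem-gated one. Gimap3 averaged 13.5 ± 7.35 CPM, Gimap7 11.3 ± 18.4 CPM and Gimap1os 31.8 ± 34.1 CPM in stem-gated cells (SD, n = 5 each). Gimap3 averaged at most 0.0708 CPM in the other gated lineages. None of these 3 genes passed the edgeR test in any of the comparisons below.

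**Figure D1:**
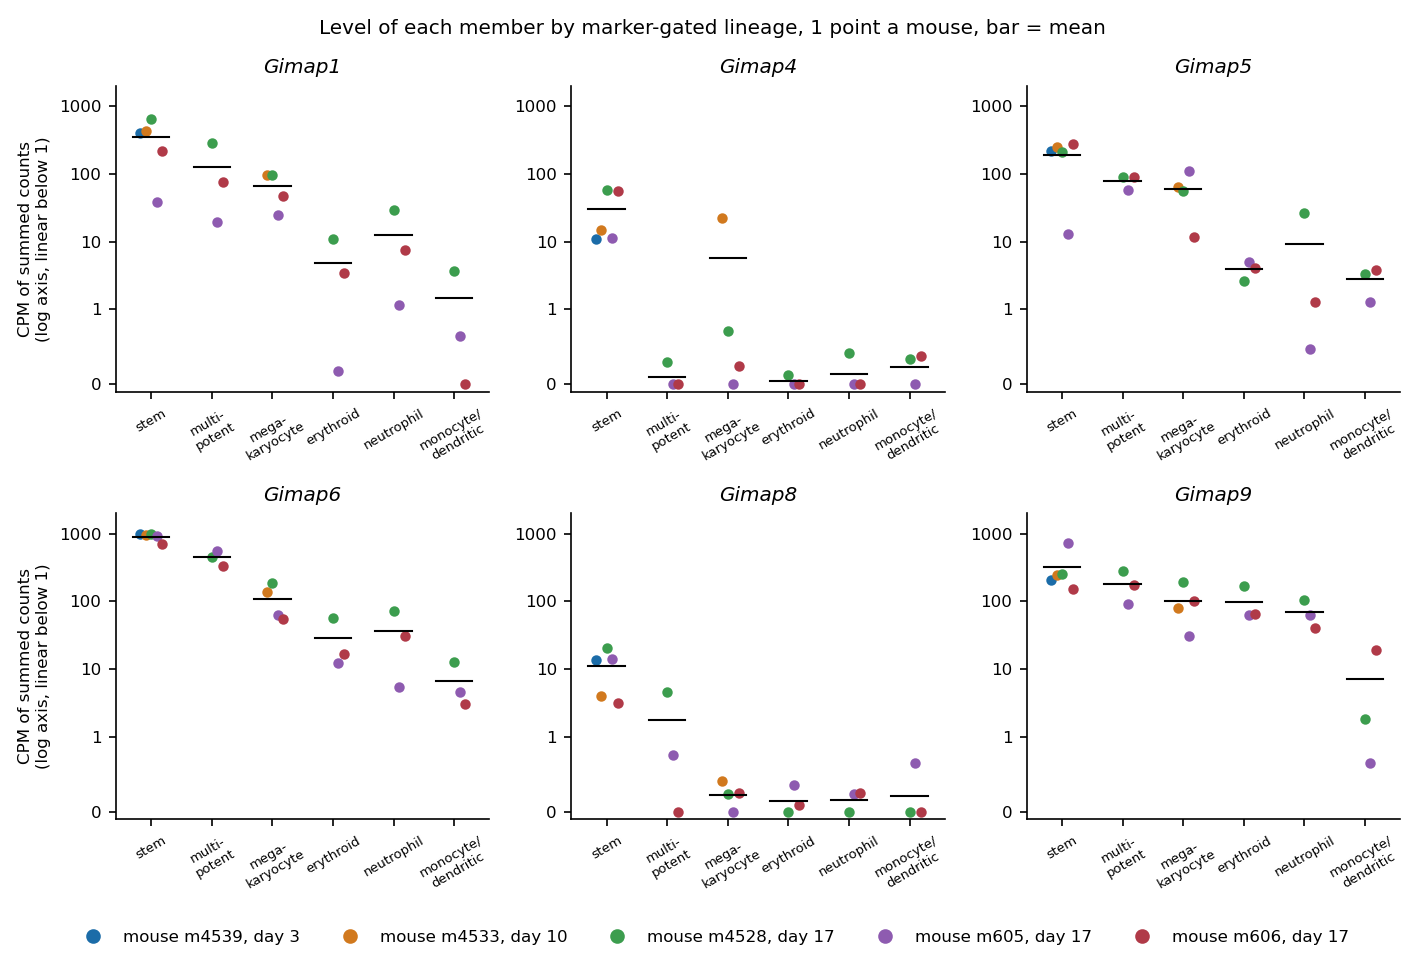
Level of each member in CPM of summed counts (log axis, linear below 1) by marker-gated lineage, 1 point a mouse with at least 10 cells in the lineage, bar at the mean. Gimap6 sits between 700 and 984 CPM in the stem gate and at or below 185 CPM from megakaryocyte cells on, while the Gimap9 points of stem, multipotent, megakaryocyte and erythroid cells overlap.

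The single cells showed how these sums were made up. Gimap6 was found in 266 of 341 stem-gated cells (78.0%, exact Clopper-Pearson 95% interval 73.2 to 82.3%), against 53.6% of multipotent, 41.3% of megakaryocyte, 27 of 135 erythroid, 16.4% of neutrophil and 5.08% of monocyte and dendritic gated cells. These intervals cover counting error only, since they treat cells pooled from all mice and the combined plate as independent. They do not measure the spread between mice. Counts are reads and are not known to be molecules. The per-mouse shares for Gimap6 in stem-gated cells were 80.8%, 80.7%, 75.3%, 61.5% and 78.1% in m4539, m4533, m4528, m605 and m606. In cells where Gimap6 was found, its median was 1109.8 CPM in stem-gated cells, against 295 CPM in megakaryocyte and 63.7 CPM in erythroid gated cells. Both the share of positive cells and the level in them were thus highest in the stem gate among these lineages. After each cell was thinned to 10000 counts, Gimap6 had at least 1 count in 79.5% of stem-gated and 11.9% of erythroid gated cells.

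Gimap1 was found in 205 stem-gated cells (60.1%, interval 54.7 to 65.4%), against 42.0% of multipotent, 33.7% of megakaryocyte, 4.44% of erythroid and 9.59% of neutrophil gated cells. None of 59 monocyte and dendritic gated cells had over 10 counts of Gimap1, which allows a share of up to 5.08%. Among 19 basophil and mast gated cells, too few per mouse to sum, Gimap1 was found in 47.4% (interval 24.4 to 71.1%) and Gimap6 in 42.1% (interval 20.3 to 66.5%). Gimap5 was found in 29.6% of stem-gated cells (interval 24.8 to 34.8%), against 20.3% of multipotent, 10.9% of megakaryocyte and 3.70% of erythroid gated cells.

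Gimap9 was found in a like share of most lineages. It was 27.3% in stem-gated cells (interval 22.6 to 32.3%), against 33.3% in multipotent, 26.1% in megakaryocyte, 34.1% in erythroid, 32.9% in neutrophil and 1.69% in monocyte and dendritic gated cells. The level of Gimap9 in the cells where it was found differed at this limit. Its median was 835 CPM in stem-gated cells, against 547 CPM in multipotent, 251 CPM in megakaryocyte, 214 CPM in neutrophil and 172 CPM in erythroid gated cells. The share of stem-gated cells with Gimap9 was close to constant over mice, at 28.1%, 28.1%, 26.0% and 30.8%, with 8 of 32 cells in m606.

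Gimap4 was found in 11 and Gimap8 in 14 of the 341 stem-gated cells, out of 14 and 18 of all 1010 cells. In the few stem-gated cells that had it, Gimap4 was not low: the median was 973 CPM, with 222 CPM for Gimap8. None of 69 multipotent gated cells had over 10 counts of Gimap4, which allows a share of up to 4.35%, and 1 had over 10 counts of Gimap8.

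**Figure D2:**
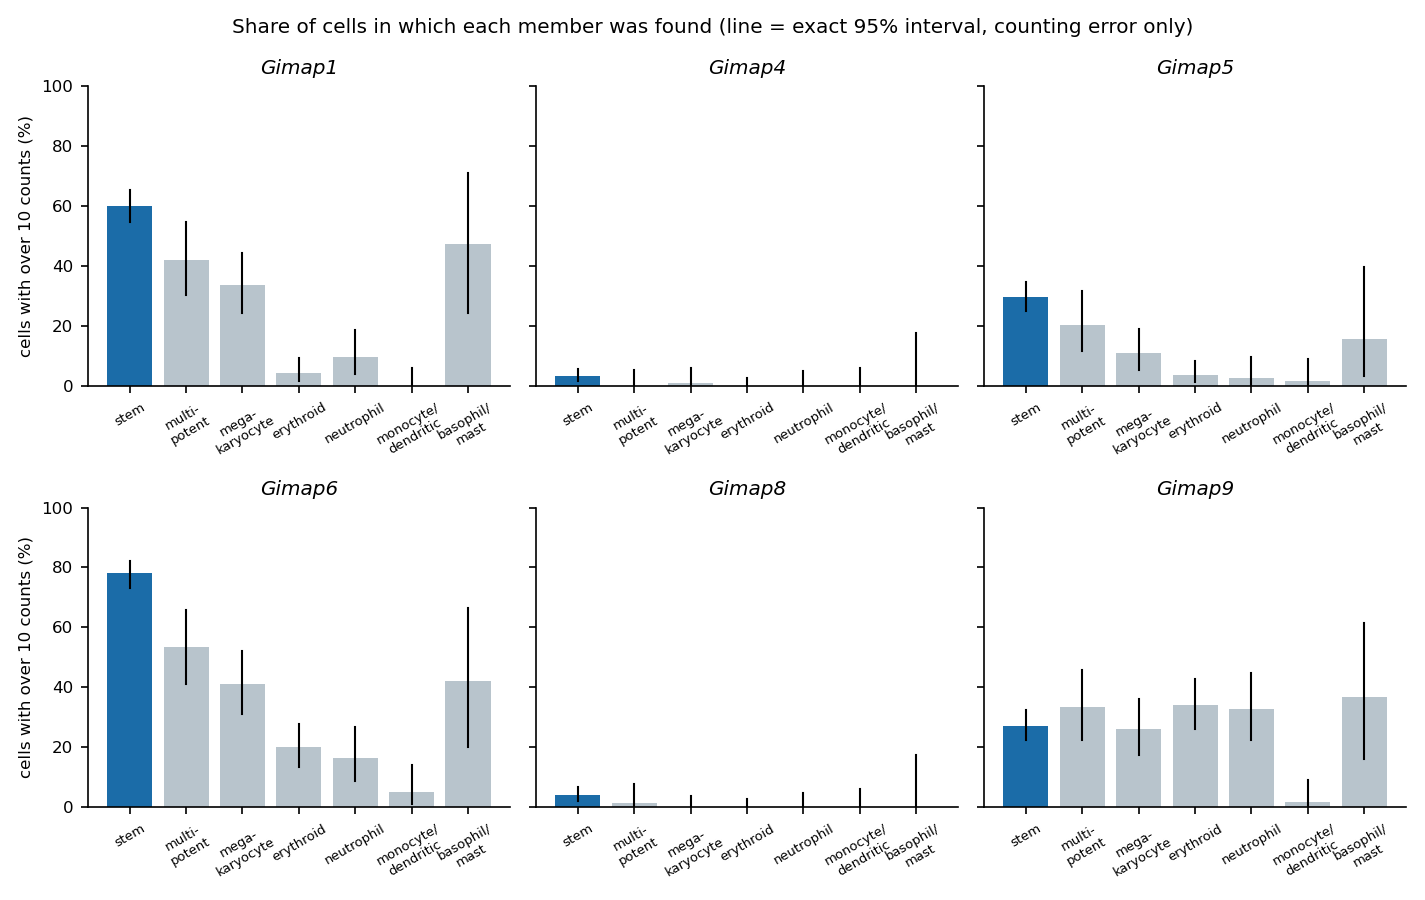
Share of cells (%) with over 10 counts of each member by marker-gated lineage, over all mice, with the exact 95% interval as a line. Bars for Gimap6, Gimap1 and Gimap5 are highest in the stem gate, at 78.0%, 60.1% and 29.6%, whereas those for Gimap9 lie between 26.1% and 36.8% in every lineage except the monocyte and dendritic one.

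At least 1 of the 6 members was found in 325 of 341 stem-gated cells (95.3%, exact interval 92.5 to 97.3%), and 16 cells had none. At least 2 members were found in 240 cells (70.4%), at least 3 in 105 (30.8%) and at least 4 in 18 (5.28%), and no cell had all 6. At least 2 members were found in 46.4% of multipotent, 33.7% of megakaryocyte, 10.4% of erythroid and 12.3% of neutrophil gated cells. By mouse, the share of stem-gated cells with at least 2 members was 71.9%, 78.9%, 72.7%, 46.2% and 62.5% in m4539, m4533, m4528, m605 and m606.

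Within stem-gated cells Gimap1, Gimap5, Gimap6 and Gimap9 were found together in pairs about as often as the product of their shares gives. Ratios with Gimap6, found in most stem-gated cells, have little room above 1. The product was taken within each mouse and added up. Gimap1 and Gimap6 were found together in 155 cells, where the product gives 161, a ratio of 0.962. The ratio was 1.05 for Gimap5 and Gimap6 (83 cells), 1.04 for Gimap1 and Gimap5 (65 cells), 1.09 for Gimap1 and Gimap9 (61 cells), 1.05 for Gimap6 and Gimap9 (76 cells) and 0.988 for Gimap5 and Gimap9 (27 cells). Put as shares, Gimap6 was found in 75.6% of stem-gated cells with Gimap1 and in 81.6% of those without it. With the product taken within 3 bins of depth of each mouse, the 6 ratios ran from 0.947 to 1.09. In the first table alone they were 0.953 to 1.06, and they were 0.911 to 1.44 among the 61 stem-gated cells of the second. Pairs with Gimap4 or Gimap8 shared at most 10 cells, and their ratios ran from 0 (Gimap4 and Gimap8) to 1.56 (Gimap8 and Gimap9). Gimap1os was found in 17 stem-gated cells, and Gimap1 in 11 of these.

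Over all 1010 kept cells, the pairs of Gimap1, Gimap5, Gimap6 and Gimap9 were found together more often than the product of shares. Their ratios were 1.10 (Gimap5 and Gimap9) to 1.39 (Gimap1 and Gimap5). For Gimap1 and Gimap6 this was 275 cells, where the product gives 228. Cells of different lineages are mixed in that count, and the stem gate is part of it. Over the 21 sums of 1 mouse and 1 lineage, the Pearson correlation of log2(CPM + 1) was 0.91 between Gimap1 and Gimap6, 0.89 between Gimap1 and Gimap5, 0.85 between Gimap5 and Gimap6 and 0.76 between Gimap6 and Gimap9. It was lowest, at 0.44, between Gimap4 and Gimap9. These values are descriptions, since sums of 1 mouse share animal, plates and depth.

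**Figure D3:**
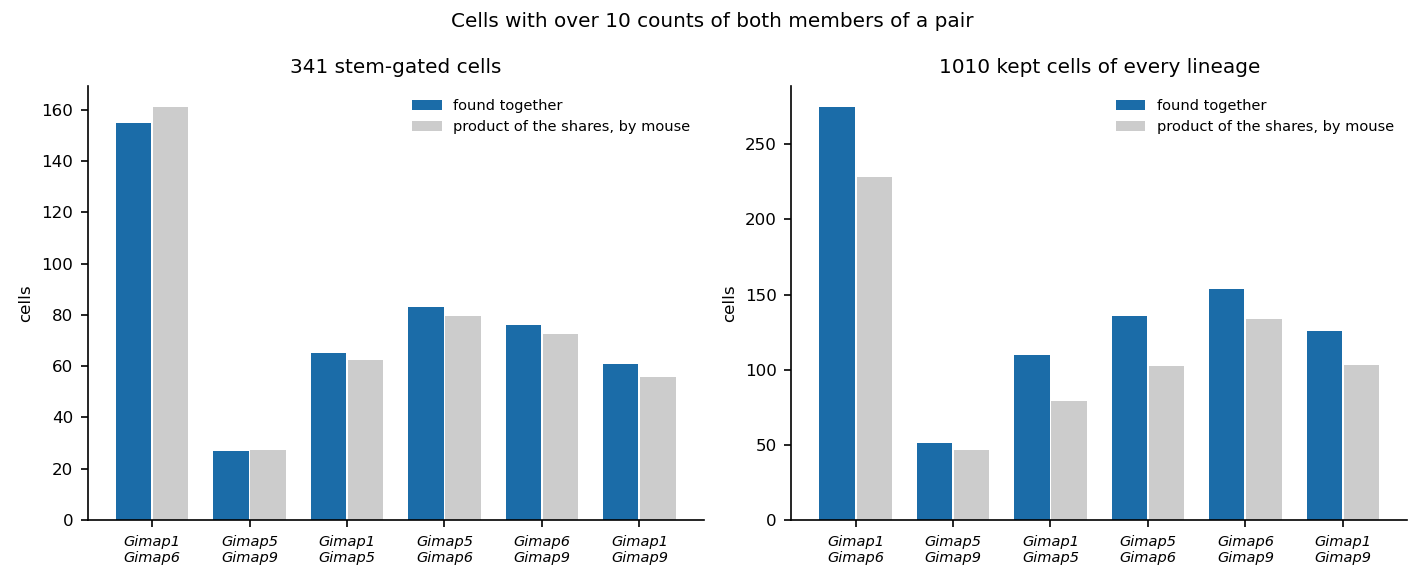
Cells with over 10 counts of both members of a pair (blue), beside the number that the product of the shares within each mouse gives (grey), in 341 stem-gated cells (left) and in 1010 kept cells of every lineage (right). Bars of a pair are near equal on the left, such as 155 and 161 cells for Gimap1 and Gimap6, and the blue bar is the higher for each pair on the right.

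Depth did not set the stem-gated cells with a common member far apart from those without it. Cells with Gimap6 had a median of 118948 counts, against 108162 in cells without it. The pairs of values were 124126 and 104702 counts for Gimap1, 118651 and 116009 for Gimap5, and 121338 and 115362 for Gimap9.

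Taken over all kept cells, the summed level of the members was lower on later days, while in stem-gated cells it showed no such order. Over all kept cells the sum of the 6 members was 1631 CPM at day 3, 1116 CPM at day 10 and 767, 219.9 and 250 CPM in m4528, m605 and m606 at day 17. In stem-gated cells the sum was 1835 CPM at day 3, 1908 CPM at day 10 and 2175, 1738 and 1410.2 CPM at day 17. Gimap6 over all kept cells had 844, 562, 317, 104 and 96.3 CPM, with the 3 mice of day 17 below the mice of days 3 and 10. Stem-gated cells made up 76.8% of the kept cells of m4539, 53.3% of m4533, 26.7% of m4528, 9.09% of m605 and 16.9% of m606. The members were chosen with earlier results of these data that placed them among genes of stem cells. Their slopes over all kept cells, given next, are therefore not independent of that choice.

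The change was fitted across all genes with edgeR's quasi-likelihood test as a log2 slope, given per 14 days and adjusted for the table, with 1 mouse at each of days 3 and 10. Over all kept cells Gimap6 had a log2 slope of -1.29 (SE 0.32) and an edgeR Benjamini-Hochberg adjusted p of 0.401, so it did not pass. Gimap5 had -1.50 (SE 0.50, adjusted p = 0.507), Gimap1 -0.83 (adjusted p = 0.733), Gimap8 -1.77 (adjusted p = 0.846), Gimap4 0.94 (adjusted p = 0.932) and Gimap9 0.00 (adjusted p of 1). None of the 6 members, and none of the 16740 genes tested, passed (0%), while 1473 genes (8.8%) had an unadjusted p under 0.05, with 401 of them (2.4%) lower on later days, Gimap5 and Gimap6 included. DESeq2 on the same sums called 455 genes (2.72%), with Gimap6 as the single member (-1.42, adjusted p = 0.0139). With both mice of the second table at day 17, the slope rests on the 3 mice of the first table, where Gimap6 over all kept cells had 844, 562 and 317 CPM at days 3, 10 and 17. In the kept cells outside the stem gate, Gimap6 had 543, 304, 215, 70.6 and 49.5 CPM in m4539, m4533, m4528, m605 and m606.

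In stem-gated cells the slopes were 0.01 for Gimap6 (SE 0.64), 0.69 for Gimap1 (SE 1.03), -0.03 for Gimap5 (SE 1.68), 0.30 for Gimap9 (SE 1.25), 2.44 for Gimap4 (SE 1.62) and 0.57 for Gimap8 (SE 2.08), each with an adjusted p of 1 in edgeR. None of 12820 genes passed (0%), 180 genes (1.4%) had an unadjusted p under 0.05, 112 of them (0.874%) lower on later days, and no member was among these. DESeq2 called 3 genes (0.0234%) and no member. These errors are wide, so a change of several fold in either direction would not be detectable for most members, and the values do not show that levels stayed the same.

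**Figure D4:**
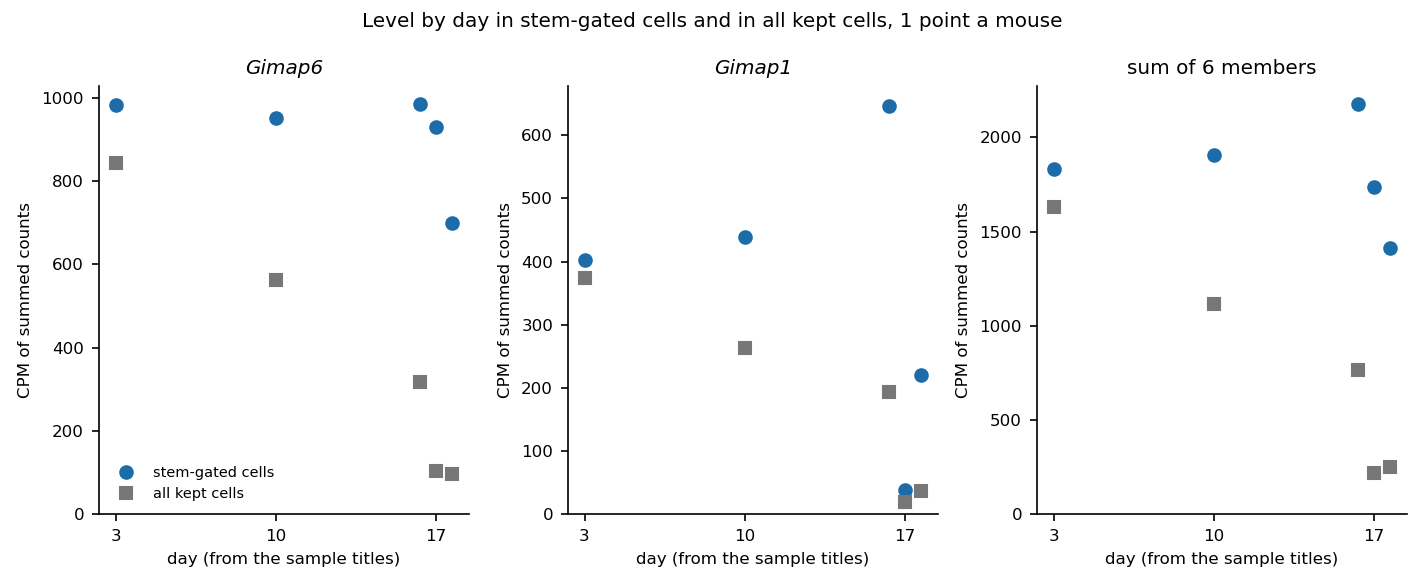
CPM of summed counts of Gimap6, Gimap1 and the 6 members together against day, 1 point a mouse, in stem-gated cells (blue circles) and in all kept cells (grey squares), with the 3 mice of day 17 drawn side by side. The grey Gimap6 points of the first table run from 844 CPM at day 3 to 317 CPM in m4528 at day 17. Those of m605 and m606, in the second table and of day 17 too, are at 104 and 96.3 CPM. The blue Gimap6 points stay between 700 and 984 CPM.

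Cycling stem-gated cells had lower CPM of the members than non-cycling ones in nearly every comparison within a mouse. Cycling cells had at least 3 of 12 cycling markers found, and non-cycling cells had none or 1. Mice m4539, m4533 and m4528 had at least 5 cells in both classes, with 11, 5 and 9 cycling and 128, 48 and 65 non-cycling cells. The 6 members together had 971, 814 and 483 CPM in cycling cells, against 2044, 2145 and 2674 CPM in non-cycling cells of m4539, m4533 and m4528.

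Gimap6 had 426, 332 and 147 CPM in cycling cells, against 1123, 1068 and 1211 CPM in non-cycling cells of the 3 mice, without overlap. The log2 difference was -1.98 (SE 0.39, edgeR adjusted p = 0.351). Gimap1 had 302, 159.8 and 229 CPM in cycling cells, against 412, 502 and 781 CPM in non-cycling cells (-1.24, SE 0.35, edgeR adjusted p = 0.351). Gimap5 had 98.7, 49.0 and 2.57 CPM in cycling cells, against 252, 300.1 and 283 CPM in non-cycling cells (-3.17, SE 1.22, edgeR adjusted p = 0.393). For these members every cycling sum lay below every non-cycling sum.

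Gimap4 had 0, 3 and 0 counts in the cycling sums, against 13.7, 19.5 and 79.8 CPM in non-cycling cells. It was found in none of the 11, 5 and 9 cycling cells of m4539, m4533 and m4528. Among non-cycling cells it was found in 2 of 128, 1 of 48 and 4 of 65. At such low shares, few or no positive cells are to be expected among so few cycling cells. The Gimap4 results for cycling, here and below, rest on these 7 cells. Gimap8 had 0.697, 0 and 9.77 CPM in cycling cells, against 17.2, 4.48 and 22.8 CPM in non-cycling cells, which overlapped. Gimap9 had 143, 272 and 95.2 CPM in cycling cells, against 226, 251 and 296 CPM in non-cycling cells (-0.68, SE 0.49, edgeR adjusted p = 0.692), and in m4533 the cycling sum was the higher. Adjusted p-values of Gimap4 and Gimap8 were 0.352 and 0.556 in edgeR.

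None of the members passed the edgeR test, in which 1 of 11414 genes was called (0.00876%). That gene was Ccnb2, a mitotic cyclin that is among the markers used for the split, named here after its value was seen. Groups did not overlap, with cycling sums the lower, for 4 of the 6 members and for 1546 of all genes tested (13.5%). An unadjusted p under 0.05 with cycling lower was reached by Gimap1, Gimap4, Gimap5 and Gimap6, and by 1109 of all genes (9.72%). The median log2 difference was -2.57 over the 6 members and -0.57 over all genes tested. DESeq2 called 906 genes (7.94%), among them Gimap6 (adjusted p = 0.00250), Gimap5 (adjusted p = 0.00851) and Gimap4 (adjusted p = 0.00854), with no call for Gimap1 (adjusted p = 0.119).

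Cycling cells were deeper, with median counts of 269023, 490392 and 200851 a cell, against 118880, 246400 and 92765 in non-cycling cells of m4539, m4533 and m4528, and the part of depth in these differences was not tested. Gimap6 was found in 11 of 11, 4 of 5 and 4 of 9 cycling cells, against 81.2%, 79.2% and 78.5% of non-cycling cells. In m4539 and m4533 the lower Gimap6 level thus went with a share of positive cells that was no lower, and in m4528 with a lower share. Gimap5 was found in 5 of 11, 1 of 5 and 0 of 9 cycling cells, against 29.7%, 31.2% and 36.9% of non-cycling cells. Gimap1 was found in 9 of 11, 3 of 5 and 6 of 9 cycling cells, against 59.4%, 62.5% and 75.4% of non-cycling cells. Its share was higher in cycling cells of m4539 and lower in those of m4533 and m4528. Gimap9 was found in 5 of 11, 3 of 5 and 2 of 9 cycling cells. Among non-cycling cells it was found in 35 of 128, 12 of 48 and 16 of 65. The Gimap9 share was higher in cycling cells of m4539 and m4533 and lower in those of m4528.

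**Figure D5:**
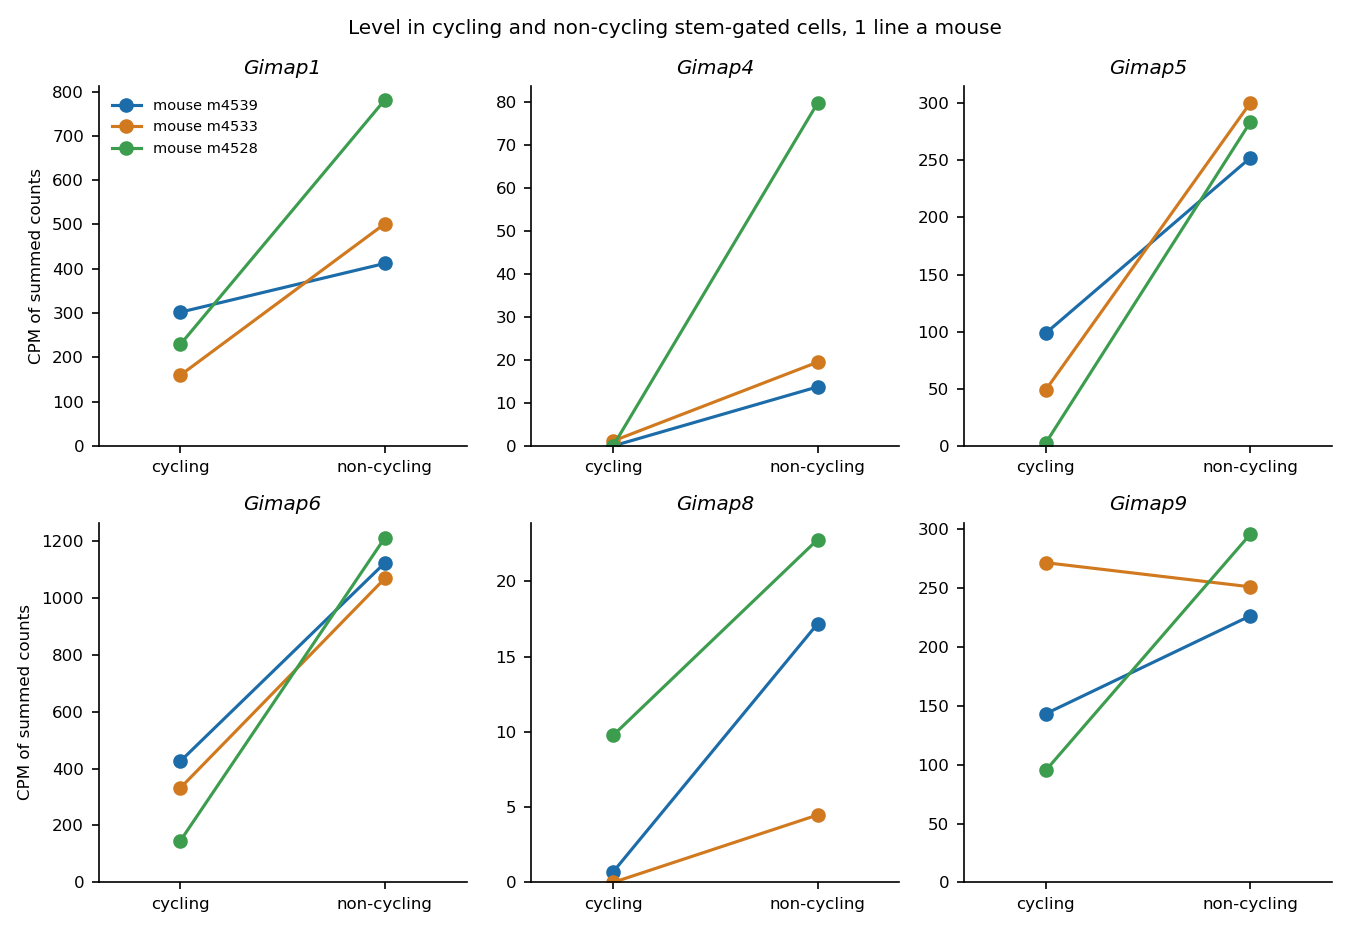
CPM of summed counts of each member in cycling (left) and non-cycling (right) stem-gated cells, 1 line for each of mice m4539, m4533 and m4528. Lines rise to the right for Gimap1, Gimap4, Gimap5, Gimap6 and Gimap8 in each mouse, and for Gimap9 in 2 of 3, with Gimap6 at 147 to 426 CPM on the left and 1068 to 1211 CPM on the right.

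Genes beside the cluster were compared with it. Of 10 listed flanking genes, 8 were in both tables and 6 were tested in each comparison, and none passed the edgeR test. Their median log2 values were -0.83 over day in all kept cells, -0.57 over day in stem-gated cells and -2.55 for cycling against non-cycling cells, where all 6 were negative. Over all genes tested for cycling the median was -0.57 and 65.8% were negative. The flanking genes with the highest level in stem-gated cells, Tmem176b and Tmem176a, membrane proteins of immune cells whose genes lie 63.0 kb beyond Gimap3, had 721 ± 298 and 474 ± 59.7 CPM in stem-gated cells (SD, n = 5 each). Their multipotent levels were 533 ± 179 and 418 ± 251 CPM and their monocyte and dendritic levels 164 ± 108 and 170 ± 86.0 CPM (SD, n = 3 each). Both were also lower in cycling than in non-cycling stem-gated cells, at -1.11 and -1.10 on the log2 scale (edgeR adjusted p = 0.351 each), which did not pass.

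The Bcl2 and Gabarap families, whose proteins have been named as partners of Gimap proteins, were listed as a second comparison. All 12 listed genes were in both tables, none passed the edgeR test, and the median log2 values were -0.11 over day in all kept cells, -0.01 over day in stem-gated cells and 0.19 for cycling against non-cycling cells, beside 0.03, -0.05 and -0.57 over all genes tested. The survival gene Mcl1 had 182 ± 91.0 CPM in stem-gated cells and a cycling difference of -2.96 (edgeR adjusted p = 0.351). Gabarap, with 605.3 ± 85.9 CPM, and Map1lc3b, with 748 ± 277 CPM, both autophagy proteins of 1 fold, differed by -0.48 and -0.82 (edgeR adjusted p = 0.482 and 0.351). Gabarapl1 had 123 ± 41.3 CPM in stem-gated cells, against means of at most 41.3 CPM in the other lineages compared.

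A second family of immune GTPases, those that interferon induces, was listed for comparison, and 16 of 17 were in both tables. None passed the edgeR test. In the cycling comparison 14 of 14 tested were negative, with a median of -1.47, beside -2.57 for the Gimap members and -0.57 for all genes. In stem-gated cells Ifi47 had 388 ± 147 CPM, Igtp 217 ± 72.0, Gbp7 204 ± 76.3 and Gbp2 197 ± 115 CPM (SD, n = 5 each). In megakaryocyte gated cells (n = 4) Ifi47 had 334 ± 149 CPM and Gbp2 29.5 ± 31.9 CPM, so members of this family differed in how far their level reached beyond the stem gate.

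Genes whose pattern was most like that of the members were sought over the same 21 sums of mouse and lineage, among 7081 genes with a mean of at least 20 CPM, by Pearson correlation with log2 of the summed members. The 10 highest were Paip2 (0.95), Zbtb20 (0.94), Adgrg1 (0.92), Krt18 (0.91), Ddx58 (0.91), Itm2a (0.90), Abhd4 (0.90), Uba7 (0.89), Meis1 (0.89) and Angpt1 (0.89). Meis1, a homeobox factor, is on the stem marker list and so took part in the gate. The median correlation was 0.06, and 1.17% of genes were above 0.8. Zbtb20, a zinc finger repressor, had 288 CPM in stem-gated sums on average, against 38.7 CPM in the other sums, and Adgrg1, an adhesion receptor, had 1166 against 379 CPM. Gimap6 gives a large part of the sum, and the values are a description.

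Lymphocytes express Gimap genes, so their markers were examined in the stem gate. Of 17 listed lymphocyte genes, 9 were in both tables. Over 341 stem-gated cells the T and B cell genes Trac, Trbc1, Trbc2, Ms4a1, Cd2 and Bcl11b had 1, 3, 6, 2, 3 and 4 counts, and none was found in any cell. Cd79b was found in 39 cells (123 CPM over all), Klrb1c in 25 (42.2 CPM) and Lck in 13 (15.6 CPM). The summed list had 174, 183, 220, 12.1 and 162 CPM in m4539, m4533, m4528, m605 and m606, with m605 the lowest. Mouse m605 was also the lowest for Gimap1 and Gimap5, but the highest for Gimap9 and not the lowest for Gimap4, Gimap6 and Gimap8. The part of the lymphocyte genes in the members' levels was not tested. Of 11 endothelial or stromal genes, Cxcl12 had no counts, Kdr was found in 7 cells, and the summed list had 4.50 to 66.1 CPM.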

How the data were processed

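Single cells were sorted into plates and sequenced with a Smart-seq2 variant that reads transcript ends, per the labels. Raw, unnormalized counts were deposited as 2 tables, on GRCm38 per the submitters' processing notes (aligner, counter and any molecular identifiers not given in the sources used here). Of 6477 and 2880 barcodes, 585 and 425 had at least 500 genes and 10000 counts. The first table holds m4539, m4533 and m4528 and the second m605 and m606. The members, the lists and the tests were chosen with earlier results of these data known.

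Each cell took the lineage with the highest of 7 marker scores if at least 3 of its markers had over 10 counts and the score led by 1.2 times. Scores were means of log values scaled to 10000 counts a cell and capped at the 99th percentile. Doublets were not called, since wells were filled by sorting. Counts were summed per mouse, the replicate, which leaves 1 mouse at each of days 3 and 10; the combined plate entered no test. The tests used edgeR 4.0.16 (quasi-likelihood, TMM, filterByExpr, two-sided) in R 4.3.3, with day and table as terms, or with the mouse as block for cycling against non-cycling cells, since both sums come from the same animal. Each adjusted p is a Benjamini-Hochberg value over all genes tested, called under 0.05. The second table holds day 17 only, so the slope rests on the 3 mice of the first table. DESeq2 1.42.0, other scaling, filters, gates and detection limits, and leaving out each mouse were alternatives. The 6 members were all named; from each list at most 4 genes with the highest level in stem-gated cells were named, and the 10 genes most correlated. Names and positions came from the files and GENCODE. The code was tested on simulated data.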

Additional observations from a re-analysis of the deposited data

Results flagged for a closer look

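Among the 4 plates of mouse m4528, plate 7 stood far above the others for both scarce members in stem-gated cells. Gimap4 had 223 CPM on plate 7, from 4 of 25 stem-gated cells with over 10 counts, while the other 3 plates had 0 to 1.51 CPM. Gimap8 had 58.6 CPM on plate 7, from 3 cells of which 1 held 74.8% of its counts, while the other 3 plates had 0 to 9.02 CPM. The gap of the highest value to its nearest neighbour, over the range, set both apart. The limit used is passed by chance in about 1 in 20 groups of normally distributed values. That rate does not hold where a few cells carry the counts and the other plates lie near 0, so no chance rate is given. Each plate was looked at for every member. The other members were not set apart, with Gimap6 at 1038 CPM and Gimap1 at 633 CPM on plate 7. The m4528 levels of Gimap4 and Gimap8 given above rest on these few cells.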

How the results depend on the processing

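Genes called for day over all kept cells numbered 0, against 455 with DESeq2 and 18 without the table term. In stem-gated cells they numbered 0, against 3 with DESeq2 and 2 without the filter. For cycling cells they numbered 1, against 906 with DESeq2, 20 without the filter, 28 without the mouse as block, 4 with cells of 500 genes alone, 5 and 0 with a gate lead of 1.0 and 1.5, 2 with at least 2 cycling markers against none, and 0 to 0 leaving out each mouse. The median stem over multipotent ratio of the sum, 2.08, was 2.40 with a lead of 1.5 and 2.51 with 500 genes alone. Stem-gated cells with at least 1 member, 95.3%, were 99.7% at 1 count or more and 97.4% at 50 CPM, and those with at least 2 members, 70.4%, were 94.7% at 1 count or more.

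Several slopes that had not passed changed sign. Over all kept cells Gimap4 had -0.47 without the table term. Gimap9 had -0.13 with DESeq2 and with RLE factors, -0.62 without the table term, -0.0013 with 500 genes alone, and -0.79 to 0.68 leaving out each mouse. Gimap8 had -5.51 to 1.87 leaving out each mouse. In stem-gated cells Gimap1 had -0.48 without the table term, Gimap5 had 0.0080 with DESeq2 and with RLE factors and -0.62 to 0.62 leaving out each mouse, and Gimap6 had -0.034 without the filter. Gimap8 had -0.84 with a lead of 1.5 and -3.41 to 4.61 leaving out each mouse. The cause was not tested. DESeq2 called Gimap6 over day and Gimap4, Gimap5 and Gimap6 for cycling. RLE factors moved the median of all genes to -0.09 over day and to -0.44 for cycling, against 0.03 and -0.57.

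For the change with day no paired analysis was possible, because the replicates are mice, each of 1 day. The plate numbers that days share do not mark a shared animal. The cycling comparison is paired, with the mouse as block. Few cells lie behind Gimap4 and Gimap8, found in at most 14 stem-gated cells each, and behind m605, with 13 stem-gated cells.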
